A study of Homo sapiens with 42 samples.

Results

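The genes described here are the insulin-like growth factor (IGF) binding proteins IGFBP1 to IGFBP7 and the receptors of the family, IGF1R, IGF2R and INSR. They were taken by name, as the rows of the deposited array table with 1 gene symbol, keeping the row with the highest mean over all arrays where a gene had several. Of the 10 genes, 9 had such a row, out of 18404 genes tested. IGFBP6 shares its row with a second gene and is given no value. Messenger RNA was measured on 42 one-colour arrays. The cells were 2 human lines from lung tumours: H460 comes from a large-cell carcinoma and H1299 from a non-small cell carcinoma. The series names H460 as radiosensitive and H1299 as radioresistant and compares how each responds over time to a single dose of gamma rays. Per line there were 6 arrays labelled 0 h, before irradiation, and 3 at each of 2, 4, 8, 12 and 24 h after 2 Gy, given to exponentially growing cultures in RPMI medium with fetal bovine serum. Within a group the labels name the arrays as biological replicates. All arrays after 0 h are labelled as irradiated, so hours since irradiation and hours in culture cannot be told apart in any change below. The protocol also speaks of unirradiated control cells kept for the same periods, and the labels do not settle if some 0 h arrays came from them.

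IGF1 and IGF2 are secreted growth factors that act mainly through IGF1R, a receptor tyrosine kinase that drives PI3K-AKT and MAPK signalling. INSR, its close relative, binds insulin and, in 1 isoform, IGF2, and both receptors can pair into hybrids. IGF2R, also the cation-independent mannose 6-phosphate receptor, takes up IGF2 for breakdown and sorts lysosomal enzymes. The binding proteins hold the ligands outside the cell, which can shield them from the receptors or keep them near the surface until a protease releases them, and IGFBP3 has also been studied for growth inhibition in lung cancer cells. The pathway is known in lung cancer for survival signalling after radiation and drug treatment.

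Promoter sequences are shown for IGFBP3 and IGF2R because these were the members whose levels in H460 were called higher at 24 h than at 0 h under every setting tried. Both windows are from RefSeq (GRCh38.p14), run 5′ to 3′ on the gene's own strand over 300 bases around the start, most of them before it, and have each match to the GC box letters GGGCGG, on either strand, in capitals. The IGFBP3 window is chr7:45921223-45921522 on the minus strand and the IGF2R window is chr6:159968832-159969131 on the plus strand.
IGFBP3: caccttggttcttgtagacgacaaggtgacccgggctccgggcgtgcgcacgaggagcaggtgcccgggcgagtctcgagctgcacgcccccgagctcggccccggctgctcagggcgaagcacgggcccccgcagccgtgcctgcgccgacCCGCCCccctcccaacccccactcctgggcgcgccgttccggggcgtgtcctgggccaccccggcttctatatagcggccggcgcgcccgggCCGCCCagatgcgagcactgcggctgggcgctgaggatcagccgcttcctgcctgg
IGF2R: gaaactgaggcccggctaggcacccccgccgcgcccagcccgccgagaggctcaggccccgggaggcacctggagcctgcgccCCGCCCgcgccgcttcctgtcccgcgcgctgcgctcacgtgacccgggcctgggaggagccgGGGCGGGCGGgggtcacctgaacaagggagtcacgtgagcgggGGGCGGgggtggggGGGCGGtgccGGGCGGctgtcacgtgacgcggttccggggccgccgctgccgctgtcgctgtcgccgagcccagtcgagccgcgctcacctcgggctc
The GC box letters occurred 2 times in the IGFBP3 window and 6 times in the IGF2R window, where matches that overlap were counted separately. At least 1 such match was present in 45% of 35114 windows of the same length, so its presence is common. A window was found for 8 of the 10 genes, with none for IGFBP1 and IGFBP7. IGFBP2 had 3 windows, and its values are those of the first listed. The windows of IGF1R, IGF2R and INSR were 79.7%, 78.7% and 78.3% G and C, at percentiles 97.4, 96.3 and 96 of all windows. The IGFBP3 window was 74.7% G and C, that of IGFBP4 was 74%, that of IGFBP5 was 59% and that of IGFBP2 was 55.3%, against a median of 58.7% over all windows. The letters TATAAA were found in 1 of the 8 windows, that of IGFBP4, and in 11.5% of all windows, and CCAAT was found in 0 of the 8 and in 34.6% of all. Both motifs were searched on both strands. A match here is a description of the letters only.

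Levels are log2 values per gene row, so they are compared between arrays and never between genes. The spread of values within an array, taken as the interquartile range over all genes and called array width here, differed between groups: it averaged 2.84 at 2 h in H460 against 3.34 at 0 h and 3.64 to 3.67 from 8 h on, and 3.53 to 3.82 in the groups of H1299. Each result was therefore also fitted with array width in the model, and again with 4 narrow arrays left out (the 3 of H460 at 2 h and H1299 0 h replicate 2). These were not the 4 narrowest arrays of the series. An H460 0 h array at 3.14 was kept, although no H1299 0 h array was below 3.24. In H460 all 3 arrays at 2 h were narrow, so a change at 2 h and the narrow arrays cannot be told apart. With array width in the model limma called 0 of 18404 genes at 2 h in H460 (1528 at an unadjusted p under 0.05, and 0 called by robust eBayes), so no gene could keep a 2 h call in that fit, and only the size of a 2 h change is given from it. The share of all genes called also dropped in that fit for the H460 course (15.8%) and for H460 at 8, 12 and 24 h (0.717%, 3.41% and 8.41%). Keratin genes KRT8 and KRT18 stood at or above the 98.3 percentile of genes in both lines, while the epithelial genes CDH1 and EPCAM stood between the 16.1 and 18.6 percentiles. KRT19 stood at the 99.2 percentile in H460 and the 38 percentile in H1299. Of the mesenchymal genes VIM was above the 99 percentile in both lines, CDH2 was at percentiles 36.3 in H460 and 88.5 in H1299, and ZEB1 at 42.1 and 60.2. The lung lineage genes NKX2-1, SFTPB, SFTPC and NAPSA were below the median gene in both lines. Of 6 fibroblast markers 4 were below the median gene in H460 and 5 in H1299, and of 5 measured leukocyte markers 4 were in each line, with PTPRC at percentiles 1.4 and 2.02.

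Before irradiation H460 had more mRNA than H1299 for most of these genes. Of the 9 measured members, 6 were higher in H460 at 0 h, 1 was lower and 2 were not called different. Over all genes the share called was 55.1%, with 26% higher in H460 and 29.1% lower. The median difference between the lines was 1.0 over the members and 0.075 over all genes. A gene was called when its adjusted p was under 0.05 (limma, with Benjamini-Hochberg adjustment over the 18404 genes). All values after ± in the text are standard errors of the model unless SD is written. Since these are bulk samples, fewer cells with a transcript and less RNA per cell cannot be told apart.

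**Figure D1:**
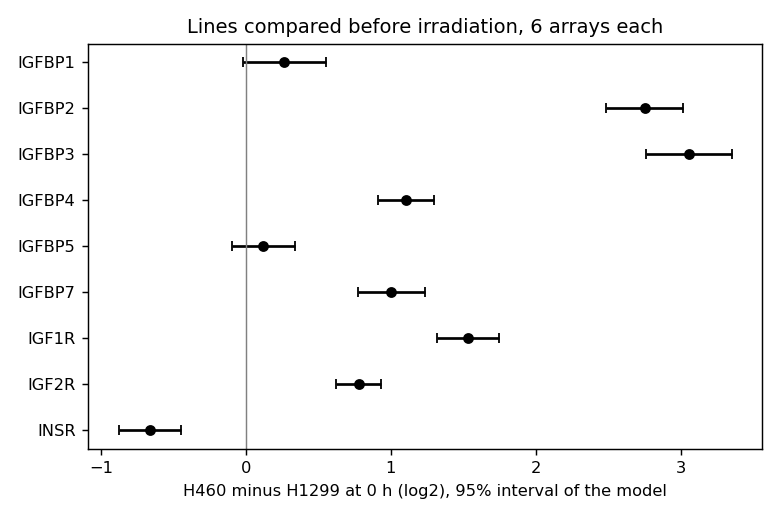
Difference between the lines at 0 h for each member (points, H460 minus H1299 on the log2 scale, 6 arrays per line) with the 95% interval of the model (bars). IGFBP3 and IGFBP2 lie near 3, INSR is the only member below 0, and the intervals of IGFBP1 and IGFBP5 cross 0.

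Among the binding proteins, IGFBP3, the main carrier of IGFs in the circulation, had the widest gap. Its level at 0 h ran from 8.68 through a median of 8.77 to 9.17 in H460 and from 5.29 through 5.87 to 6.19 in H1299. No array of one line came near those of the other, and H460 was higher by 3.05 ± 0.14 (8.30-fold, adjusted p = 2.68e-13). IGFBP2, which is often raised in tumours, ran from 8.50 through 9.20 to 9.43 in H460 and from 6.10 through 6.38 to 6.57 in H1299. H460 was higher by 2.75 ± 0.13 for IGFBP2 (6.72-fold, adjusted p = 2.75e-13). IGFBP4, a binding protein known mostly as an inhibitor of IGF action, was at 7.73, 8.06 and 8.18 (lowest, median and highest) in H460 and at 6.68, 6.90 and 7.02 in H1299, a difference of 1.10 ± 0.092 (2.15-fold, adjusted p = 2.68e-09). IGFBP7, which binds IGFs weakly and is also found in the matrix around cells, had a mean of 6.58 in H460 and 5.58 in H1299 at 0 h, a difference of 1.0 ± 0.11 (2.0-fold, adjusted p = 1.61e-07). The arrays of the lines did not overlap for any of these 4 genes, at 0 h or over all 21 arrays per line. The share of all genes without such overlap is not given here, so this is not read as particular to them.

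The other binding proteins were not called different at 0 h. IGFBP1, a binding protein best known from liver, ran from 5.71 through 6.02 to 6.39 in H460 and from 5.46 through 5.69 to 6.17 in H1299. The arrays overlapped, and the difference of 0.27 ± 0.14 for IGFBP1 had an adjusted p of 0.107, with a 95% interval from -0.021 to 0.55. Without H1299 0 h replicate 2, a narrow array, it was called (0.35, adjusted p = 0.0272), as it was without H460 0 h replicate 6 (adjusted p = 0.0452), and with array width in the model it was -0.074 (adjusted p = 0.618). IGFBP5, a matrix-bound binding protein, was dim, at the 11.2 percentile of genes in H460 and the 11.4 percentile in H1299. Its means of 3.45 and 3.33 differed by 0.12 ± 0.11 (adjusted p = 0.336, 95% interval from -0.099 to 0.34), and without detection calls it cannot be said whether IGFBP5 was detected at all.

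All 3 receptors differed between the lines at 0 h. IGF1R ran from 8.41 through 8.62 to 8.91 in H460 and from 6.80 through 7.14 to 7.31 in H1299, higher in H460 by 1.53 ± 0.10 (2.89-fold, adjusted p = 7.01e-11). The second IGF1R row of the table, at means of 7.48 and 6.28, followed the first over the 42 arrays with r = 0.954, as a description, and gave a difference of 1.20 (adjusted p = 1.08e-08). IGF2R ran from 9.67 through 9.79 to 9.96 in H460 and from 8.84 through 9.07 to 9.14 in H1299, higher in H460 by 0.78 ± 0.074 (1.71-fold, adjusted p = 2.07e-08). INSR went the other way, from 5.29 through 5.39 to 5.71 in H460 and from 5.82 through 6.15 to 6.22 in H1299. H460 was lower by 0.66 ± 0.10 for INSR (1.58-fold, adjusted p = 1.39e-05), so the lines differed in opposite directions for the IGF and insulin receptor tyrosine kinases. Each of the 7 called differences at 0 h was called with the same sign under all 11 other settings and without each of the 12 arrays in turn.

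Neighbouring binding protein genes had unlike differences. IGFBP3 and IGFBP1 are adjacent on chromosome 7 in the RefSeq gene table, with 0 genes listed between them, and IGFBP2 and IGFBP5 are adjacent on chromosome 2. The difference between the lines at 0 h was larger for IGFBP3 than for IGFBP1 by 2.79, and larger for IGFBP2 than for IGFBP5 by 2.63. The pairs were chosen after the levels had been seen, so these values are a description with no test, and the dimness of IGFBP5 limits the second.

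In H460, 6 of the 9 members had a called time course over 24 h by quadratic regression on hours, against 41.9% of all genes. By their largest change, 3 of the 6 rose (20.5% of all genes) and 3 fell (21.4%). IGFBP3 and IGF2R climbed to their highest levels at 24 h, IGF1R was lower at 2 h and higher at 12 and 24 h, and INSR was lower in the middle of the course. Counted by time point, 4 members changed at 2 h, 0 at 4 h, 1 at 8 h, 3 at 12 h and 4 at 24 h, against 40.4%, 2.92%, 16.9%, 33.5% and 28.7% of all genes. At 4 h limma gave 3 members an unadjusted p under 0.05, and robust eBayes also called 0. IGFBP2 and IGFBP7 were called at no time point in H460.

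**Figure D2:**
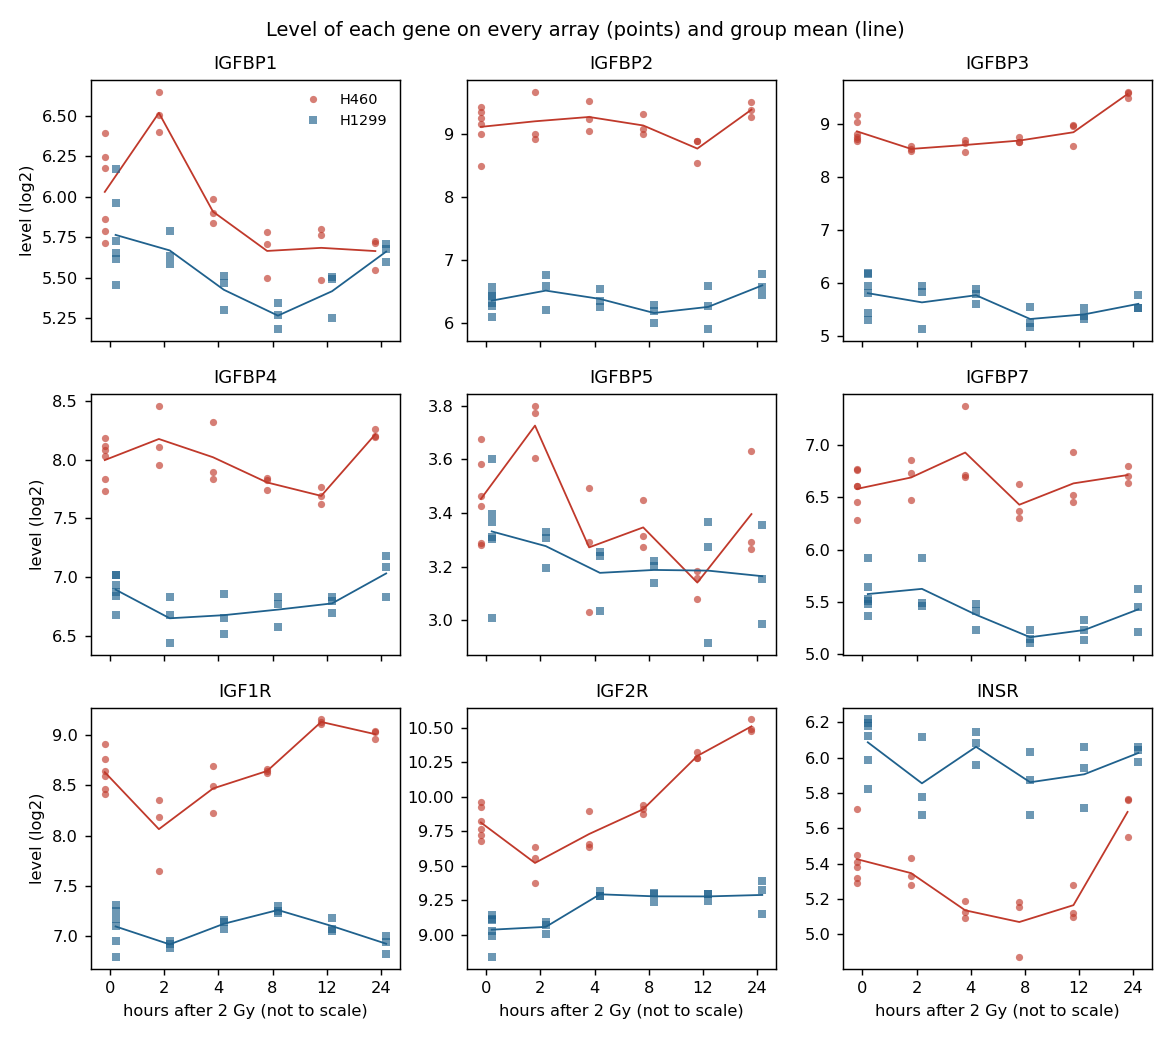
Level of each member on every array (points) and the mean of each group (lines) at 0, 2, 4, 8, 12 and 24 h after 2 Gy, in H460 (circles, red) and H1299 (squares, blue), on a log2 scale that differs between panels. The H460 arrays of IGFBP3 and IGF2R are highest at 24 h, and the lines stay apart at every time for IGFBP2, IGFBP3, IGFBP4, IGFBP7 and IGF1R. The share of all genes whose lines stay apart is not given here.

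IGF2R rose late in H460. It stood at 9.67 to 9.96 at 0 h, at 9.55, 9.63 and 9.37 at 2 h, at 9.90, 9.63 and 9.66 at 4 h and at 9.88, 9.94 and 9.91 at 8 h. At 12 h it was 10.28, 10.28 and 10.32 and at 24 h 10.56, 10.49 and 10.47, so that all 6 late arrays lay above every earlier one. The change of IGF2R from 0 h was 0.48 ± 0.086 at 12 h (1.40-fold, adjusted p = 0.000252) and 0.70 ± 0.086 at 24 h (1.62-fold, adjusted p = 1.39e-06). Its course had an adjusted p of 2.71e-05, and the course and the 24 h rise were called under all other settings and without any 1 array. When array width was in the model the rise of IGF2R was 0.41 at 12 h (adjusted p = 0.0559) and 0.63 at 24 h (adjusted p = 0.000685). At 2 h IGF2R fell by 0.29 ± 0.086 (adjusted p = 0.00927), which was -0.19 with array width in the model. It was not called after quantile normalization (-0.10, adjusted p = 0.333) or without H460 2 h replicate 3 (adjusted p = 0.0706).

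IGF1R moved down and then up in H460. After 0 h levels of 8.41 to 8.91, it was 8.19, 8.36 and 7.65 at 2 h, 8.69, 8.22 and 8.49 at 4 h and 8.62, 8.67 and 8.64 at 8 h. It was 9.16, 9.13 and 9.11 at 12 h and 9.03, 9.04 and 8.96 at 24 h, above all arrays at 0 h. The change of IGF1R was -0.57 ± 0.13 at 2 h (1.48-fold lower, adjusted p = 0.00141), 0.50 ± 0.13 at 12 h (1.41-fold, adjusted p = 0.00462) and 0.38 ± 0.13 at 24 h (1.30-fold, adjusted p = 0.028). Its course was called (adjusted p = 0.0179), but not after quantile normalization (adjusted p = 0.0712) or with array width in the model (adjusted p = 0.57). In that last fit the changes were -0.35 at 2 h, 0.36 at 12 h (adjusted p = 0.327) and 0.25 at 24 h (adjusted p = 0.476), while with the narrow arrays left out the course had an adjusted p of 0.0107. The 24 h call also ended after quantile normalization (0.26, adjusted p = 0.13), with median centring (adjusted p = 0.0543), and with 0 h replicates 1 to 3 only (adjusted p = 0.0741) or 4 to 6 only (adjusted p = 0.0652). It ended as well without each of 5 arrays in turn, H460 0 h replicates 2 and 5 and each array at 24 h (adjusted p from 0.0579 to 0.102). The second IGF1R row changed by -0.33 at 2 h (adjusted p = 0.0371), 0.40 at 12 h (adjusted p = 0.0159) and 0.47 at 24 h (adjusted p = 0.00627).

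INSR dipped and came back in H460. From 5.29 to 5.71 at 0 h and 5.28, 5.33 and 5.43 at 2 h, it went to 5.09, 5.19 and 5.12 at 4 h, 4.87, 5.18 and 5.16 at 8 h and 5.12, 5.28 and 5.10 at 12 h. At 24 h it was 5.77, 5.55 and 5.76. All 9 arrays from 4 to 12 h lay below every array at 0 h, and 2 of the 3 at 24 h lay above them. The course of INSR had an adjusted p of 0.000912 and was called under all other settings and without any 1 array. Of its single changes, the fall of 0.36 ± 0.11 at 8 h was called (1.28-fold, adjusted p = 0.0331), but not with array width in the model (-0.22, adjusted p = 0.705), after quantile normalization (-0.24, adjusted p = 0.182), with 0 h replicates 1 to 3 only (adjusted p = 0.0743) or 4 to 6 only (adjusted p = 0.0848), nor without H460 0 h replicate 5 or any of the 3 arrays at 8 h (adjusted p from 0.0595 to 0.216). The change at 24 h was 0.27 ± 0.11 (adjusted p = 0.077), and it was called without H460 0 h replicate 5 (adjusted p = 0.0323).

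IGFBP3 rose in H460 at 24 h. Its arrays stood at 8.52, 8.57 and 8.48 at 2 h, 8.46, 8.64 and 8.69 at 4 h, 8.74, 8.65 and 8.65 at 8 h and 8.97, 8.96 and 8.59 at 12 h. At 24 h they stood at 9.61, 9.59 and 9.49, above each of the other 18 H460 arrays, where the highest at 0 h was 9.17. The rise of IGFBP3 at 24 h was 0.70 ± 0.11 (1.63-fold, adjusted p = 2.78e-05), and its course had an adjusted p of 1.31e-05. Both were called under all other settings and without any 1 array, with a rise of 0.50 (adjusted p = 0.0212) when array width was in the model. At 2 h IGFBP3 fell by 0.33 ± 0.11 (adjusted p = 0.0174). When array width was in the model that change was 0.011, and quantile normalization gave -0.10 (adjusted p = 0.441). Without H460 2 h replicate 3 the fall was not called (adjusted p = 0.0603).

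IGFBP1 rose at 2 h in H460, to 6.40, 6.51 and 6.65 against 5.71 to 6.39 at 0 h. The rise was 0.49 ± 0.14 (1.40-fold, adjusted p = 0.0065), with the arrays at 2 h just above those at 0 h. At 24 h IGFBP1 was 5.73, 5.55 and 5.72, a fall of 0.37 ± 0.14 that was only just called (adjusted p = 0.0449) and whose arrays overlapped those at 0 h. The course of IGFBP1 had an adjusted p of 0.0203, which became 0.992 in the fit with array width, with changes of -0.23 at 2 h and 0.069 at 24 h (adjusted p = 0.856). On the square root of hours the course had an adjusted p of 0.0601. Without H460 2 h replicate 3 the rise at 2 h had an adjusted p of 0.0501. The 24 h call of IGFBP1 ended after quantile normalization (adjusted p = 0.054) and with 0 h replicates 4 to 6 only (adjusted p = 0.151). It ended too without each of 11 arrays in turn, which were H460 0 h replicates 1, 2 and 5, 4 h replicate 3, 8 h replicates 1 and 3, 12 h replicates 1 and 3 and each array at 24 h (adjusted p from 0.0505 to 0.192).

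The remaining binding proteins moved little in H460. IGFBP4 was at 8.11, 7.96 and 8.46 at 2 h, 7.74, 7.83 and 7.85 at 8 h, 7.76, 7.62 and 7.69 at 12 h and 8.19, 8.26 and 8.20 at 24 h. Its course was called (adjusted p = 0.0332) although none of its 5 changes was, and the call ended with median centring (adjusted p = 0.0743), on the square root of hours (adjusted p = 0.423), and without each of 8 arrays in turn: H460 0 h replicate 5, 8 h replicate 1 and all 12 h and 24 h arrays (adjusted p from 0.0519 to 0.0788). IGFBP5 changed by -0.31 ± 0.12 at 12 h (adjusted p = 0.0451), with no called course (adjusted p = 0.106). That single call ended after quantile normalization (-0.20, adjusted p = 0.215), with median centring (adjusted p = 0.0746), in the fit with array width (adjusted p = 0.501), with 0 h replicates 1 to 3 only (adjusted p = 0.0821) or 4 to 6 only (adjusted p = 0.117), and without each of 10 arrays in turn, H460 0 h replicates 1, 2 and 5, 4 h replicate 1 and every array at 8 h and 12 h (adjusted p from 0.0502 to 0.146). IGFBP2 stayed between 8.50 and 9.67 over all 21 H460 arrays, with changes from -0.34 at 12 h to 0.27 at 24 h and no called course (adjusted p = 0.251). At 12 h it was called without H460 0 h replicate 1 (adjusted p = 0.0169). IGFBP7 stayed between 6.28 and 7.37, with no called course (adjusted p = 0.931).

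In H1299, 4 of the 9 members had a called time course, against 36.5% of all genes, 1 with a rise as its largest change (19.9% of all genes) and 3 with a fall (16.6%). The receptor IGF2R rose, and the largest changes of IGFBP1, IGFBP4 and IGFBP7 were falls. By time point 0 members changed at 2 h, 1 at 4 h, 4 at 8 h, 3 at 12 h and 1 at 24 h, against 13.8%, 15.9%, 24.6%, 29.7% and 11.7% of all genes. At 2 h limma gave 2 members an unadjusted p under 0.05, and robust eBayes also called 0. With array width in the model limma called 0 of the 9 courses, with or without robust eBayes, and 3 had an unadjusted p under 0.05, while the share of all genes called in that fit was 22.9%. IGFBP3 and IGF1R, whose courses were called in H460, were not called in H1299 (adjusted p = 0.0616 and 0.152), and neither was INSR (adjusted p = 0.306).

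**Figure D3:**
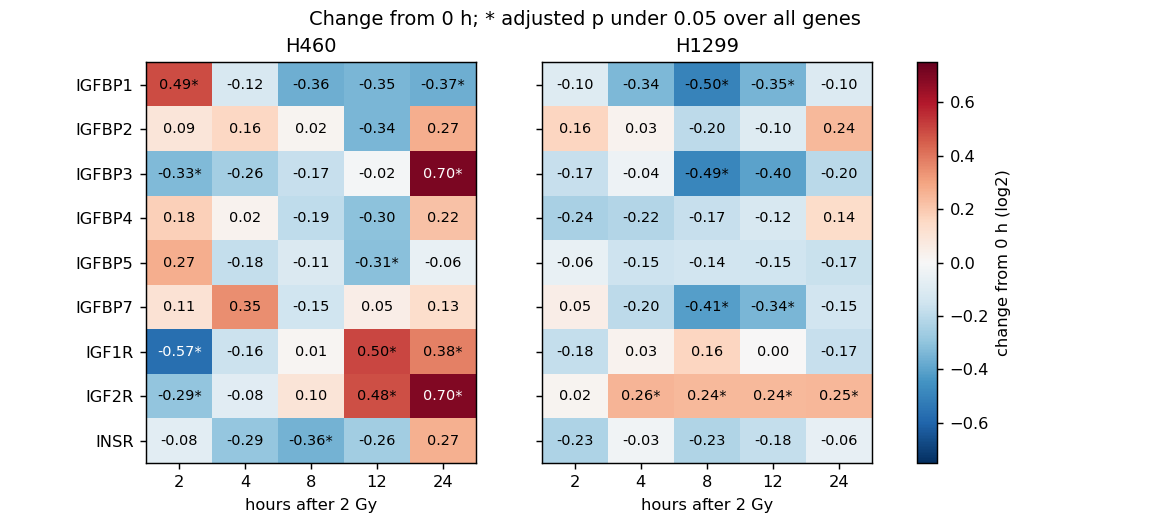
Change of each member from 0 h of its own line at 2 to 24 h, in H460 (left) and H1299 (right), as colour and printed log2 value, with an asterisk where adjusted p was under 0.05 over all genes. In H460 the changes of 0.70 for IGFBP3 and IGF2R at 24 h stand out, and in H1299 IGF2R has 4 called rises of 0.24 to 0.26.

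IGF2R rose in H1299 from 4 h on. After 8.84 to 9.14 at 0 h and 9.01, 9.09 and 9.07 at 2 h, it was 9.28, 9.28 and 9.31 at 4 h, 9.24, 9.29 and 9.30 at 8 h, 9.29, 9.29 and 9.25 at 12 h and 9.32, 9.15 and 9.39 at 24 h. Every array from 4 h on lay above every array at 0 h. The change of IGF2R was 0.26 ± 0.064 at 4 h (1.20-fold, adjusted p = 0.00614), 0.24 at 8 h (adjusted p = 0.00714), 0.24 at 12 h (adjusted p = 0.00609) and 0.25 at 24 h (1.19-fold, adjusted p = 0.00981). The course had an adjusted p of 0.0019, and with array width in the model 0.0936. In that fit the rises at 4 h and 24 h were 0.22 (adjusted p = 0.00468) and 0.21 (adjusted p = 0.00894), while those at 8 h and 12 h were 0.14 (adjusted p = 0.16) and 0.13 (adjusted p = 0.178). The 24 h call ended without H1299 24 h replicate 1 or 3 (adjusted p = 0.0595 to 0.0989).

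IGFBP1 fell in H1299 and was lowest at 8 h. It was 5.46 to 6.17 at 0 h, 5.30, 5.47 and 5.51 at 4 h, 5.34, 5.27 and 5.18 at 8 h, 5.51, 5.25 and 5.49 at 12 h and 5.68, 5.71 and 5.60 at 24 h. The arrays at 8 h lay below all arrays at 0 h and those at 24 h lay within them. IGFBP1 fell by 0.50 ± 0.12 at 8 h (1.41-fold, adjusted p = 0.0036) and by 0.35 ± 0.12 at 12 h (adjusted p = 0.0319), with an adjusted p of 0.00362 for the course. With array width in the model the changes of IGFBP1 were -0.20 at 8 h (adjusted p = 0.185) and -0.037 at 12 h (adjusted p = 0.863), and the adjusted p of the course was 0.222. The 12 h call ended after quantile normalization (adjusted p = 0.0536), with the narrow arrays left out (adjusted p = 0.0591), with 0 h replicates 1 to 3 only (adjusted p = 0.0963), and without H1299 0 h replicate 2 or 4 or 12 h replicate 2 (adjusted p from 0.0591 to 0.197), and the change at 4 h was called without H1299 0 h replicate 1 or 3 (adjusted p from 0.021 to 0.049).

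IGFBP7 followed a like path in H1299. It was 5.36 to 5.92 at 0 h, 5.23, 5.11 and 5.15 at 8 h and 5.24, 5.13 and 5.33 at 12 h, all 6 below the arrays at 0 h, and 5.45, 5.62 and 5.22 at 24 h. IGFBP7 fell by 0.41 ± 0.12 at 8 h (adjusted p = 0.0164) and by 0.34 ± 0.12 at 12 h (adjusted p = 0.0374), with an adjusted p of 0.0091 for the course. In the fit with array width the change of IGFBP7 was -0.17 at 8 h (adjusted p = 0.406) and -0.090 at 12 h (adjusted p = 0.692), and the course had an adjusted p of 0.671, and on the square root of hours 0.0599. The 8 h call ended without H1299 8 h replicate 2 or 3 (adjusted p = 0.0638 to 0.0679), and the 12 h call after quantile normalization (adjusted p = 0.0729), with the narrow arrays left out (adjusted p = 0.0719), with all 42 arrays in 1 model, with 0 h replicates 1 to 3 only (adjusted p = 0.0813) or 4 to 6 only (adjusted p = 0.0735), or without H1299 0 h replicate 2 or 6 or 12 h replicate 1 or 2 (adjusted p from 0.058 to 0.167).

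IGFBP3 in H1299 was 5.94, 5.12 and 5.83 at 2 h, 5.54, 5.24 and 5.16 at 8 h and 5.52, 5.77 and 5.52 at 24 h, within or close to the 5.29 to 6.19 seen at 0 h. Its change at 8 h was -0.49 ± 0.18 (adjusted p = 0.0459), with arrays that overlapped those at 0 h. It was -0.19 in the fit with array width (adjusted p = 0.587), and it was not called after quantile normalization (adjusted p = 0.0831), with eBayes without trend, with the narrow arrays left out (adjusted p = 0.0842), or with 0 h replicates 1 to 3 only (adjusted p = 0.0501) or 4 to 6 only (adjusted p = 0.108). The call also ended without 13 of the 21 arrays in turn: H1299 0 h replicates 1, 2, 4 and 6, all arrays at 4 h, 8 h replicates 2 and 3, 12 h replicates 1 and 3 and 24 h replicates 1 and 3 (adjusted p from 0.051 to 0.2). Conversely, its course was called without H1299 0 h replicate 3 or 5 or 2 h replicate 2 (adjusted p from 0.0156 to 0.0292). The course of IGFBP4 in H1299 had an adjusted p of 0.0371 with no called single change, and was not called with array width in the model (adjusted p = 0.062), median centring (adjusted p = 0.0591), 1 mean per time point (adjusted p = 0.052), 0 h replicates 1 to 3 only (adjusted p = 0.0507) or without each of 6 arrays in turn: H1299 4 h replicates 1 and 2, 8 h replicate 3, 12 h replicate 2 and 24 h replicates 1 and 2 (adjusted p from 0.0509 to 0.175). IGF1R stayed between 6.80 and 7.31 over the 21 H1299 arrays and INSR between 5.67 and 6.22. IGF1R was called lower at 2 h and at 24 h without H1299 0 h replicate 2 (adjusted p = 0.026 and 0.0392). IGFBP2 stayed between 5.91 and 6.79, and IGFBP5 between 2.91 and 3.60, with no called course (adjusted p = 0.111 and 0.314).

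The difference between the lines in how the members moved was tested directly. The time courses of IGFBP3 (adjusted p = 0.00171), IGF2R (adjusted p = 0.00233) and IGF1R (adjusted p = 0.0282) differed between H460 and H1299, which is 3 of the 9 members against 16.7% of all genes. By time point the change differed for 3 members at 2 h, 1 at 4 h, 0 at 8 h, 1 at 12 h and 3 at 24 h, against 28.6%, 8.54%, 10.1%, 8.68% and 12.4% of all genes. Limma gave 0 members an unadjusted p under 0.05 at 8 h, with or without robust eBayes. Over all times this makes 8 called differences, and 5 without H460 2 h replicate 3. The 3 called differences at 24 h were towards a larger rise in H460.

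At 24 h the change of IGFBP3 was 0.70 in H460 and -0.20 in H1299, a difference of 0.91 ± 0.21 (adjusted p = 0.00319). The gap in IGFBP3 level between the lines went from 3.05 at 0 h to 3.96 at 24 h. The change of IGF2R was 0.70 in H460 and 0.25 in H1299, a difference of 0.44 ± 0.10 (adjusted p = 0.00257). When array width was in the model the differences at 24 h were 0.98 for IGFBP3 (adjusted p = 0.00209) and 0.37 for IGF2R (adjusted p = 0.00784), and for both genes the course and the 24 h difference were called under all other settings and without any 1 array. Earlier the difference in IGF2R had the other sign, at -0.31 ± 0.10 at 2 h (adjusted p = 0.0199) and -0.34 ± 0.10 at 4 h (adjusted p = 0.0309). At 4 h its change was -0.083 in H460, which was not called, and 0.26 in H1299. The 2 h difference of IGF2R ended without H460 2 h replicate 3 or H1299 2 h replicate 2 (adjusted p from 0.0553 to 0.109), with array width in the model (-0.16, adjusted p = 0.442), after quantile normalization (-0.13, adjusted p = 0.3) and with 0 h replicates 4 to 6 only (adjusted p = 0.0565). The 4 h difference ended with median centring (-0.27, adjusted p = 0.118), with 0 h replicates 1 to 3 only (adjusted p = 0.0551) or 4 to 6 only (adjusted p = 0.113), and without each of 8 arrays in turn: H460 0 h replicates 1 and 4 and 4 h replicates 2 and 3, and H1299 0 h replicate 2 and every array at 4 h (adjusted p from 0.0504 to 0.11).

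For IGF1R the change at 24 h was 0.38 in H460 and -0.17 in H1299, a difference of 0.55 ± 0.16 (adjusted p = 0.0154), and at 12 h the difference was 0.50 ± 0.16 (adjusted p = 0.0388). In the fit with array width they were 0.43 (adjusted p = 0.058) and 0.44 (adjusted p = 0.0425), and the course difference had an adjusted p of 0.136. The course difference of IGF1R ended without H460 24 h replicate 2 or H1299 24 h replicate 1 (adjusted p = 0.0536 to 0.0777), and the 24 h difference without H1299 24 h replicate 1 (adjusted p = 0.0572). With 0 h replicates 1 to 3 only the 24 h difference had an adjusted p of 0.12 and the 12 h difference one of 0.208, and quantile normalization gave 0.41 at 12 h (adjusted p = 0.0752). The 12 h difference ended without each of 13 arrays in turn: H460 0 h replicates 2, 3 and 5, H1299 0 h replicates 3, 4, 5 and 6, and every array at 12 h in both lines (adjusted p from 0.0513 to 0.0981). For the second IGF1R row the differences were 0.56 at 24 h (adjusted p = 0.0295) and 0.43 at 12 h (adjusted p = 0.132), with an adjusted p of 0.0097 for the course.

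At 2 h the change of IGFBP1 was 0.49 in H460 and -0.10 in H1299, a difference of 0.58 ± 0.18 (adjusted p = 0.0143), and that of IGFBP4 was 0.18 and -0.24, a difference of 0.42 ± 0.16 (adjusted p = 0.0413). In the fit with array width these differences were -0.030 for IGFBP1 (adjusted p = 0.934) and 0.14 for IGFBP4 (adjusted p = 0.705). The call for IGFBP1 ended without H460 2 h replicate 3 (adjusted p = 0.0648) and with 0 h replicates 1 to 3 only (adjusted p = 0.0528). That for IGFBP4 ended with 0 h replicates 1 to 3 only (adjusted p = 0.0979) or 4 to 6 only (adjusted p = 0.0909), and without each of 8 arrays in turn: H460 0 h replicates 1 and 6 and 2 h replicate 3, and H1299 0 h replicates 1, 2 and 6 and 2 h replicates 2 and 3 (adjusted p from 0.0512 to 0.235). For INSR the courses were not called different (adjusted p = 0.0801), but they were with array width in the model (adjusted p = 0.0357) and after quantile normalization (adjusted p = 0.0291).

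**Figure D4:**
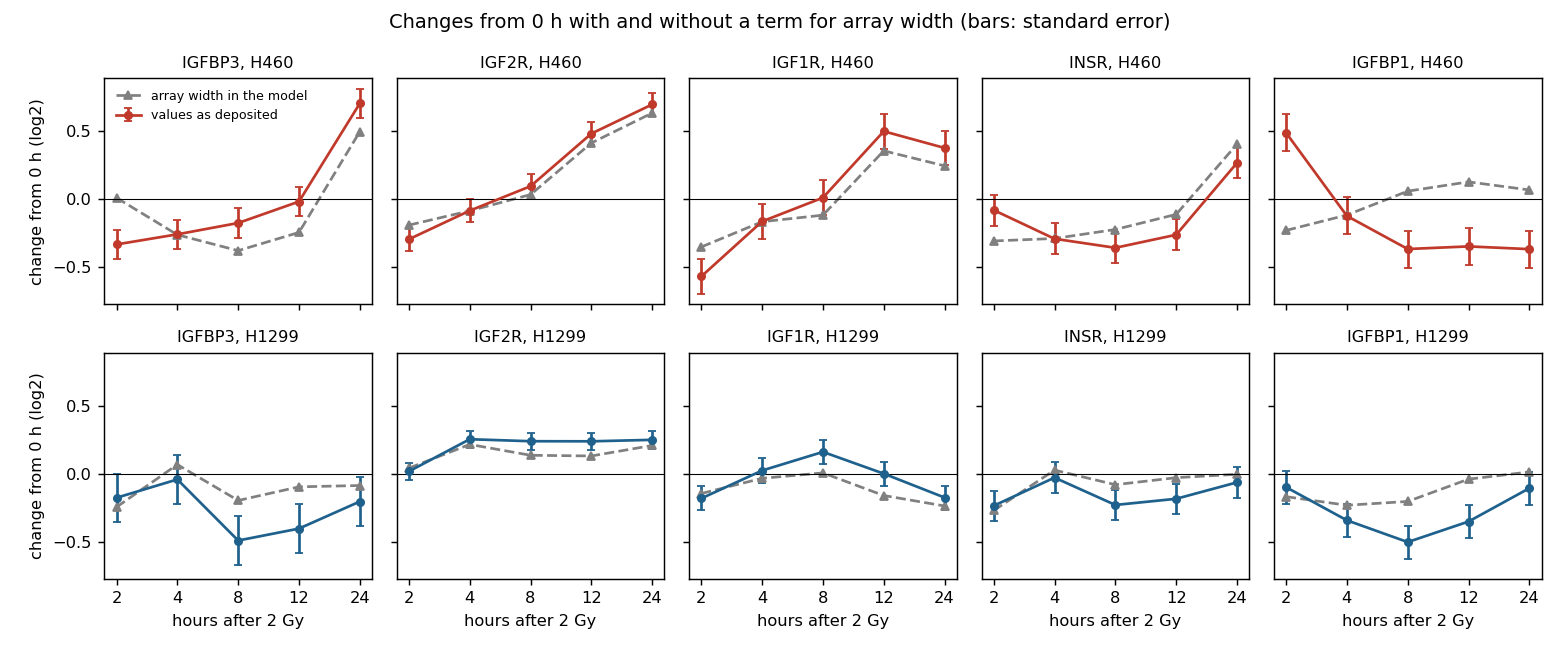
Change from 0 h at 2 to 24 h for IGFBP3, IGF2R, IGF1R, INSR and IGFBP1 in H460 (top) and H1299 (bottom), as deposited (solid line, bars are standard errors of the model) and with array width in the model (dashed line), on a log2 scale with hours not drawn to scale. The 24 h rises of IGFBP3 and IGF2R in H460 are 0.50 and 0.63 with the term, while the 2 h rise of IGFBP1 moves from 0.49 to -0.23.

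In order of group means, IGF2R was highest in H460 at 24 h, followed by 12 h and 8 h, with no overlap of arrays between these neighbours. Next came 0 h, whose arrays overlapped those at 8 h, and 4 h, whose arrays overlapped those at 0 h. Last came 2 h and then all groups of H1299. Over all 21 arrays per line the lowest IGF2R array of H460 was 9.37, at 2 h, and the highest of H1299 was 9.39. IGF1R was highest in H460 at 12 h, then 24 h, then 8 h, where 12 h stood clear of 24 h and 24 h of 8 h, 8 h overlapped 0 h, and every H1299 group was below every H460 group. IGFBP3 was highest in H460 at 24 h, clear of 0 h, and from there neighbouring H460 groups overlapped down to 2 h, which stood clear of H1299 at 0 h. Neighbouring H1299 groups all overlapped for IGFBP3. INSR was highest in H1299 at 0 h, all 6 H1299 groups had higher means than any H460 group, and 10 of the 11 pairs of neighbours overlapped. The gap in INSR between the lines was -0.66 at 0 h and -0.33 at 24 h.

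Genes were ranked by how like their changes were to those of IGFBP3, the member with the largest called change in H460, over its 10 changes (5 time points in each line). Among 6926 genes the highest Pearson r were 0.968 for S100P, a small calcium-binding protein, 0.950 for ECHDC3, 0.950 for the copper-carrying plasma protein ceruloplasmin (CP), 0.942 for FAM210B and 0.929 for the lysosomal protease cathepsin S (CTSS). Their 24 h changes in H460 were 0.77, 0.52, 0.70, 0.76 and 0.56. For IGFBP1, the member with the largest called change in H1299, the highest among 6927 genes were 0.986 for the muscarinic receptor gene CHRM4, 0.984 for FAM78B, 0.976 for MGC34796, 0.974 for the stress-induced nuclear protein NUPR1 and 0.974 for the vitamin C transporter SLC23A1. These 5 genes changed by 0.50 to 0.73 at 2 h in H460, where the arrays were narrow. The r values describe these groups, whose changes share 0 h arrays within each line, and carry no test.

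A list of 40 other genes of the pathway, chosen with earlier results of these data known, had 34 measured. At 0 h 27 of the 34 differed between the lines, against 55.1% of all genes. Of these 13 were higher and 14 lower in H460, against 26% and 29.1% of all genes. The median difference over the 34 was 0.14, against 0.075 over all genes. Of the carrier IGFALS and the proteases of the binding proteins with their inhibitors, 4 of 6 were higher in H460 and 1 lower. Of 14 genes of the PI3K and AKT branch 3 were higher and 9 lower, and of 8 adaptors 4 were higher and 2 lower. Of the ligands IGF1 had a row. It was dim, at 3.07 in H460 and 2.82 in H1299, and its difference of 0.24 ± 0.098 was only just called (adjusted p = 0.0405), not with array width in the model (adjusted p = 0.566) and not without each of 8 of the 12 arrays in turn, H460 0 h replicates 2, 3 and 5 and H1299 0 h replicates 1, 3, 4, 5 and 6 (adjusted p up to 0.108). The IGF1 call also ended after quantile normalization (0.14, adjusted p = 0.157), with 0 h replicates 1 to 3 only (0.12, adjusted p = 0.53) and with a replicate block (adjusted p = 0.0532). The course of IGF1 in H460 was only just called (adjusted p = 0.0498), and not without each of 17 of the 21 arrays in turn (adjusted p up to 0.0985). Time courses were called for 13 of the 34 in H460, against 41.9% of all genes, and for 20 in H1299, against 36.5%. By their largest change 9 rose and 4 fell in H460, against 20.5% and 21.4% of all genes. In H1299 13 rose and 7 fell, against 19.9% and 16.6%. The courses differed between the lines for 8 of the 34, against 16.7% of all genes. IGF2BP1, which binds IGF2 mRNA, stood at 5.06 in H460 and 9.94 in H1299, lower in H460 by 4.88 ± 0.10 (29.5-fold, adjusted p = 1.12e-18).

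Of the 3 proteases in the list, PAPPA and PAPPA2 had called courses in H460 with a rise at 24 h. HTRA1, named after its values were seen, had no called course there (adjusted p = 0.121) and a largest change of 0.49 ± 0.11 at 24 h (adjusted p = 0.0011), while in H1299 its course was called (adjusted p = 0.0195) with a fall of 0.37 at 12 h as its largest change. PAPPA, which cleaves IGFBP4, ran from 7.74 through 7.85 to 8.04 at 0 h in H460 and was 8.28, 8.33 and 8.23 at 8 h, 8.65, 8.75 and 8.73 at 12 h and 9.14, 9.16 and 9.07 at 24 h. In H1299 PAPPA ran from 4.31 to 4.91 at 0 h and was 4.41, 4.26 and 4.57 at 24 h. The lines differed at 0 h by 3.30 ± 0.11 (adjusted p = 1.56e-15), and PAPPA rose in H460 by 1.26 ± 0.098 at 24 h (2.39-fold, adjusted p = 1.09e-09). The change of PAPPA in H1299 was -0.15 (adjusted p = 0.592), and the 24 h changes differed by 1.41 (adjusted p = 4.9e-08). PAPPA2, a related protease that cleaves IGFBP3 and IGFBP5, ran from 5.81 to 6.17 at 0 h in H460 and was 6.96, 7.33 and 6.72 at 24 h, a rise of 1.05 ± 0.12 (2.07-fold, adjusted p = 4.08e-07). In H1299 PAPPA2 was 3.80 to 4.17 at 0 h and 4.03, 3.95 and 3.81 at 24 h. PAPPA and PAPPA2 rose in H460 at 24 h, the group in which IGFBP3 was highest. When array width was in the model the 24 h rises in H460 were 1.09 for PAPPA and 0.94 for PAPPA2, and both were called under all other settings and without any 1 array.

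The stanniocalcins STC1 and STC2, secreted inhibitors of these proteases, rose at 24 h in H1299. Before irradiation the lines differed in opposite directions for the 2 genes. H460 minus H1299 at 0 h was 3.29 ± 0.087 for STC2 (9.77-fold, adjusted p = 3.94e-17) and -1.62 ± 0.12 for STC1 (3.08-fold, adjusted p = 4.43e-10). STC2 ran from 5.24 to 5.44 at 0 h and was 6.06, 6.38 and 6.27 at 24 h in H1299, a rise of 0.93 ± 0.10 (1.90-fold, adjusted p = 7.37e-07). STC1 ran from 6.18 to 6.61 at 0 h and was 7.20, 7.19 and 7.36 at 24 h in H1299, a rise of 0.87 ± 0.10 (1.83-fold, adjusted p = 1.56e-06). In H460 STC2 was 8.41 to 8.88 at 0 h and fell by 0.63 ± 0.099 at 2 h (adjusted p = 8.7e-05), where the arrays were narrow. It was 8.06, 8.09 and 7.94 at 4 h and 8.87, 8.87 and 8.77 at 24 h (0.24 ± 0.099, adjusted p = 0.0729). The time courses of STC2 were not called different between the lines (adjusted p = 0.0712). They were with the narrow arrays left out (adjusted p = 0.00251) and after quantile normalization (adjusted p = 0.00011). Those of STC1 were called different (adjusted p = 0.00125), but not after quantile normalization (adjusted p = 0.178). The 24 h changes of STC2 differed between the lines by -0.69 (adjusted p = 0.00027) and those of STC1 by -0.59 (adjusted p = 0.0267). The 24 h difference of STC1 ended without H460 24 h replicate 1 or 2 or H1299 24 h replicate 3 (adjusted p from 0.0642 to 0.0792), in the fit with array width (-0.51, adjusted p = 0.0633), after quantile normalization (-0.38, adjusted p = 0.177) and with 0 h replicates 4 to 6 only (adjusted p = 0.129).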

How the data were processed

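The deposited values are log2 array summaries; per the labels' protocols the target came from total RNA on Affymetrix arrays, and how the authors summarised and normalised the arrays is not given in the sources used here. They run from 1.45 to 14.2 and came without detection calls. Of 32321 rows, 19158 had 1 gene symbol, and keeping the row with the highest mean per gene left 18404 genes, tested with no filter on dim genes. Levels, changes from 0 h and courses (linear and quadratic in hours) were tested with limma 3.58.1 in R 4.3.3 (lmFit, eBayes with trend): 12 arrays for 0 h, the 21 of a line for its courses and changes, and all 42 for differences between the lines. Tests were two-sided with Benjamini-Hochberg adjustment over all genes and a threshold of 0.05, and were tested on simulated data. Precision is limited by the number of arrays. The members, the pathway list and the settings were chosen with earlier results of these data known. Named genes are all members and, of the pathway list, the ligands and the 2 genes with the smallest adjusted p at 0 h and in each line's course. Genes most like a member were taken for the member with the largest called change in each line, as the 5 with the highest r among genes whose largest change was at least 0.5. Other settings were quantile normalization, median centring, leaving out the 33.3% dimmest genes, robust eBayes, no trend, array width in the model, narrow arrays left out, a replicate block, 0 h replicates 1 to 3 or 4 to 6 only, the lowest row of a gene, the square root of hours, 1 mean per time point, all 42 arrays, and each array left out in turn. Some genes are not analysed here.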

Additional observations from a re-analysis of the deposited data

Results flagged for a closer look

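Tests of the difference between the lines picked out 11 values among the members. The time courses differed for IGFBP3 (adjusted p = 0.00171), IGF2R (adjusted p = 0.00233) and IGF1R (adjusted p = 0.0282). At 24 h the H460 change minus the H1299 change was 0.91 for IGFBP3, 0.55 for IGF1R and 0.44 for IGF2R, and at 12 h it was 0.50 for IGF1R. At 4 h it was -0.34 for IGF2R. At 2 h it was 0.58 for IGFBP1, 0.42 for IGFBP4 and -0.31 for IGF2R, and there all 3 H460 arrays were narrow. Among the 18 groups of 6 arrays at 0 h (9 members in 2 lines), 0 held a single array that stood apart by Dixon's test.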

How the results depend on the processing

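With array width in the model, limma called 0 member courses in H1299 in place of 4 (3 at an unadjusted p under 0.05, and 0 by robust eBayes). It called 2 changes in H460 in place of 12, 4 in H1299 in place of 9 and 5 differing changes in place of 8. These totals are net. At 2, 4, 8, 12 and 24 h the H1299 calls numbered 1, 1, 0, 0 and 2, against 0, 1, 4, 3 and 1 without the term. The differing changes numbered 0, 1, 0, 1 and 3, against 3, 1, 0, 1 and 3. The 3 at 24 h did not include IGF1R, so another member gained a call there. The share of all genes called in that fit was 22.9% for the H1299 course (36.5% without the term), and for the H460 changes 0%, 5.31%, 0.717%, 3.41% and 8.41% at 2, 4, 8, 12 and 24 h. For the H1299 changes it was 22.2%, 19.2%, 15.6%, 17.7% and 14.6%, against 13.8%, 15.9%, 24.6%, 29.7% and 11.7% without the term. For the differing changes it was 5.61%, 12.7%, 13.7%, 11.1% and 12.4%, against 28.6%, 8.54%, 10.1%, 8.68% and 12.4%. In that fit IGFBP1 in H460 had an adjusted p of 0.992 for its course and changes of -0.23 at 2 h and 0.069 at 24 h, IGFBP3 in H460 changed by 0.011 at 2 h, and the IGFBP1 difference at 2 h was -0.030; the cause was not tested. With 0 h replicates 1 to 3 only there were 3 differing changes, and with replicates 4 to 6 only 5. With single arrays left out the differing changes numbered 5 (without H460 2 h replicate 3) to 9. Shares of all genes called in these fits are not given here, so the counts are not read as particular to the members. Of 2491 member and pathway values under other settings, 2249 kept their direction and side of the threshold, 102 lost a call, 53 gained one, 5 turned direction with a call involved and 82 moved otherwise.

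A replicate block left 7 members called at 0 h, 6 courses in H460, 3 in H1299 and 3 that differed, with 9 changes in H460, 6 in H1299 and 6 that differed. The share of all genes called with the block is not given here, so these counts cannot be set against it. Among the calls it ended were the 24 h change of IGF1R in H460 (adjusted p = 0.0694) and its difference between the lines at 12 h (adjusted p = 0.0547). Same-numbered arrays of a line did not deviate together (r from -0.37 to 0.197 over 90 pairs, 18 above 0.1), so the numbers were not taken as pairs. IGFBP5 and IGF1 are dim, and no background level could be set for them.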
